A study of Mus musculus with 6 samples.

Results

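The myoepithelial and contractile genes of the mouse mammary gland were followed at day 2 of involution in glands with and without Rac1 in their luminal epithelium. The set held 10 genes chosen by name, namely the smooth muscle and contractile proteins Acta2, Myh11, Mylk, Cnn1 and Tagln, the basal keratins Krt5, Krt14 and Krt17, the basal transcription factor Trp63 and the oxytocin receptor Oxtr. Every probe set whose annotation named exactly 1 of these symbols was taken, which gave 22 probe sets of the 45101 on the array and 10 of the 18194 genes tested. Each gene was represented by its brightest probe set over all arrays, and the others are described beside it.

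Inguinal mammary glands from 6 mice were hybridised, 1 Affymetrix array per mouse, 3 of them Rac1-/- (Nas496, Nas497 and Nas518) and 3 WT (Nas478, Nas483 and Nas484). The Rac1-/- mice were Rac1fx/fx, carried a YFP reporter and bore the WAPiCre transgene. The WT controls were also Rac1fx/fx with the YFP reporter but had no Cre, so both groups carried the floxed alleles and only the Rac1-/- group carried the transgene. The labels gave no age. By the study's methods the females were mated as young adults, nursed a litter and entered involution when the pups were removed. The paper describes its WT mice as littermates. WAPiCre places Cre under the whey acidic protein promoter, which is active in luminal cells of pregnancy and lactation. Myoepithelial cells, vessels, fibroblasts and fat therefore kept intact Rac1 by design, and RNA was prepared from the whole tissue.

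Myoepithelial cells form the outer layer of mammary ducts and alveoli, between the luminal cells and the basement membrane. They carry the keratins of basal epithelia together with a smooth muscle contractile apparatus, and they eject milk when oxytocin from the pituitary binds its receptor, calcium is released and myosin light chain kinase phosphorylates myosin. The transcription factor p63 maintains the basal lineage, and serum response factor with its myocardin-family cofactors drives the smooth muscle genes through a short DNA element, the CArG box. Smooth muscle of vessels expresses the contractile genes too, whereas the basal keratins and p63 are features of epithelium. In bulk tissue fewer cells of a type and less RNA per cell cannot be told apart.

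None of the 10 genes passed an adjusted p of 0.05 in the comparison of Rac1-/- with WT glands, with adjusted p between 0.946 and 0.998 (limma, Benjamini-Hochberg over all 18194 genes). That threshold called 0 genes of the whole array, or 0%, and the smallest adjusted p anywhere was 0.575. At an unadjusted p of 0.05 the array gave 405 higher genes, or 2.23%, and 332 lower genes, or 1.82%, and none of the 10 genes was among them. The log2 fold change was above 0 for 6 of the 10 genes and below 0 for 4, with a median of 0.18, against 53.9% above 0 and a median of 0.06 over all genes. In 1 of the 10 genes, Acta2, every Rac1-/- gland lay above every WT gland, and in 0 did every Rac1-/- gland lie below, where 5.41% of all genes were separated upward and 4.2% downward. Of the 22 probe sets, 13 were above 0, against 49.3% of all probe sets, 1 was higher at an unadjusted p of 0.05, where 1.86% were higher and 2.18% lower, and 4 were separated upward and 0 downward, where 4.6% and 4.86% were. With 3 mice against 3, an exact permutation test cannot give a p below 0.1.

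The arrays differed in ways that touch every value below. The deposited intensities had a trimmed mean of 100 on each array, yet the interquartile range of their log2 values was 1.23 to 1.98 in Rac1-/- glands and 1.42 to 2.85 in WT glands, and the median intensity 56.0 to 88.0 in Rac1-/- glands and 40.6 to 71.5 in WT glands. The 3′ minus 5′ signal of the actin control probe sets, a reading of RNA integrity and amplification, was −1.24 to −0.30 in Rac1-/- glands and −0.17 to 0.05 in WT glands, without overlap. The same reading from the Gapdh control probe sets was −0.06 to 0.18 in Rac1-/- glands and −0.04 to 0.16 in WT glands, with overlap. Along the leading axis of a principal component analysis (43.6% of variance), Nas497 (Rac1-/-) and Nas484 (WT) stood apart from the other 4 arrays on the same side. The part these differences have in any result was not tested beyond the alternatives given beside it. The brighter Rac1 probe sets did not separate the genotypes, with values of 9.51, 9.01 and 9.84 in Rac1-/- glands against 9.31, 9.50 and 8.97 in WT glands for 1, and 8.77, 8.34 and 8.14 against 8.74, 9.001 and 9.89 for the other, and which exons these probes or the deletion cover was not stated. The milk protein transcript Wap, which marks secretory luminal cells, averaged 12.28 ± 0.43 in Rac1-/- glands and 15.05 ± 0.23 in WT glands (SD, n = 3 each) and was separated, with an adjusted p of 0.653.

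Among the contractile proteins, each read from its brightest probe set, Acta2 had the largest difference. Acta2 encodes smooth muscle α-actin, the thin filament protein by which myoepithelial cells are usually recognised. Its log2 intensities after quantile normalization were 10.87, 9.76 and 9.71 in Rac1-/- glands, against 8.55, 9.67 and 8.40 in WT glands. All 3 Rac1-/- glands were above all 3 WT glands, but Nas518 of the Rac1-/- group and Nas483 of the WT group were almost level. The means were 10.11 ± 0.66 in Rac1-/- glands and 8.87 ± 0.70 in WT glands (SD, n = 3 each), a log2 fold change of 1.24 (SE 0.56, 95% interval −0.03 to 2.51, unadjusted p of 0.0543, adjusted p = 0.946). As deposited, before quantile normalization, the same intensities were 2326, 427 and 661 in Rac1-/- glands and 484, 1076 and 294 in WT glands, and the groups overlapped. Shifting each array to a common median instead gave a log2 fold change of 0.23, and using the deposited values without further scaling gave 0.70, both with overlap. With any 1 mouse left out it was 0.84 to 1.62.

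The annotation gave Acta2 2 further probe sets, both dimmer. One read 5.54, 6.38 and 5.81 in Rac1-/- glands against 4.76, 5.17 and 5.01 in WT glands, and was separated with a log2 fold change of 0.93 (SE 0.46). It stayed separated with arrays shifted to a common median, and overlapped with no normalization. The other read 6.06, 5.89 and 5.84 in Rac1-/- glands against 5.19, 4.55 and 5.87 in WT glands, where Nas484 lay among the Rac1-/- values, with a log2 fold change of 0.72 (SE 0.50). The brightest Acta2 probe set is of a class, ending in _s_at, whose probes can match more than 1 transcript, and actin genes are close in sequence. The skeletal muscle actin Acta1 read 9.42, 4.76 and 6.74 in Rac1-/- glands and 8.68, 7.46 and 8.13 in WT glands, so Nas496 was the highest of the 6 mice for both actins. The visceral smooth muscle actin Actg2 read 5.93, 4.99 and 5.63 in Rac1-/- glands and 4.33, 5.61 and 5.09 in WT glands, with overlap.

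**Figure D1:**
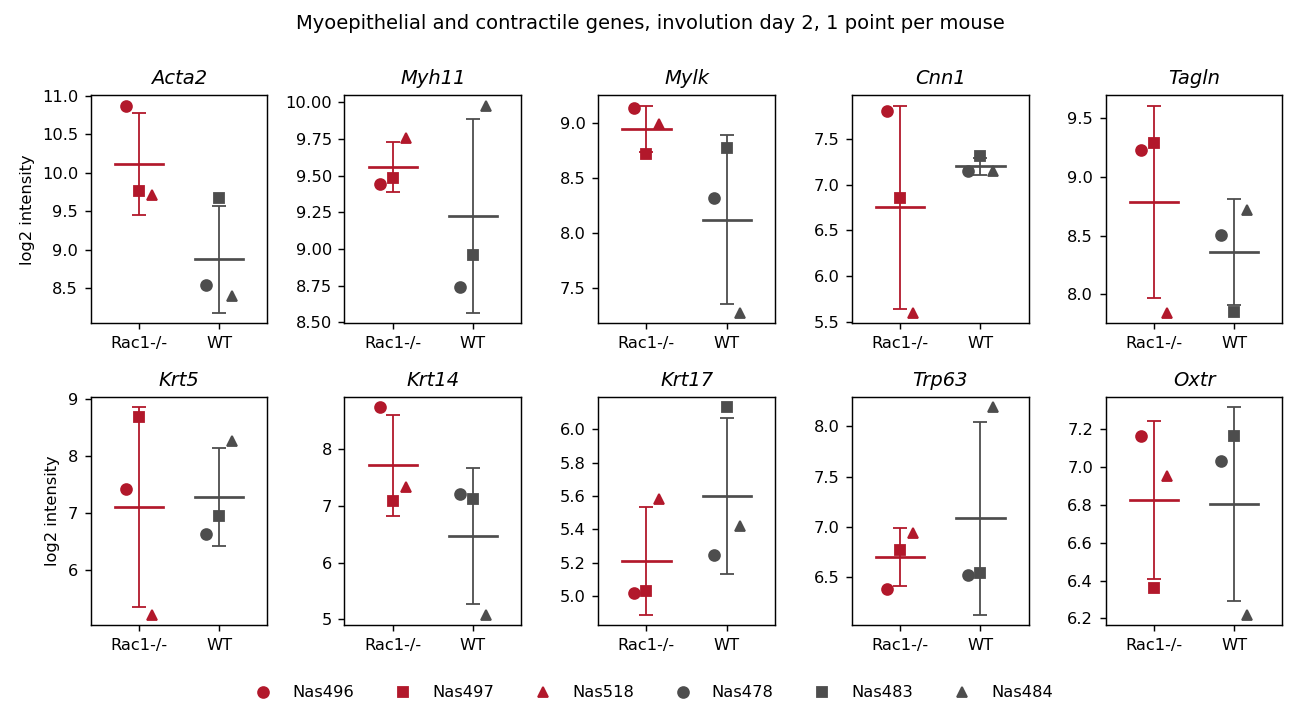
Log2 quantile-normalized intensity of the brightest probe set of each gene, with 1 point per mouse, a horizontal line at the group mean and bars of 1 SD (n = 3 each), Rac1-/- left of WT, and a separate vertical scale in each panel that does not start at 0. Only in the Acta2 panel do the groups not overlap, and in most panels the spread within a genotype is as wide as the gap between the means.

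Myh11 encodes smooth muscle myosin heavy chain, the motor of the thick filament. Its brightest probe set read 9.44, 9.49 and 9.75 in Rac1-/- glands, against 8.74, 8.96 and 9.98 in WT glands, where Nas484 held the highest value of all 6 mice and the other 2 WT glands the lowest. The means were 9.56 ± 0.17 in Rac1-/- glands and 9.22 ± 0.66 in WT glands (SD, n = 3 each), a log2 fold change of 0.34 (SE 0.49, 95% interval −0.78 to 1.45, adjusted p = 0.963). The sign turned to −0.70 with arrays shifted to a common median and to −0.22 without normalization. The second Myh11 probe set was dim, with a mean at the 32.7th percentile of all probe sets, and read 5.71, 5.73 and 6.55 in Rac1-/- glands against 4.44, 4.204 and 5.52 in WT glands. It was separated by a log2 fold change of 1.27 (SE 0.55, unadjusted p of 0.0477, adjusted p = 0.949 by limma over all probe sets), and it was the only 1 of the 22 probe sets with an unadjusted p below 0.05. Its deposited intensities were 46.0, 78.1 and 100.7 in Rac1-/- glands and 5.38, 6.53 and 55.8 in WT glands, which overlap. The probe sets of Myh11 thus gave log2 fold changes that differed by nearly 1 unit in the same RNA.

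Mylk encodes myosin light chain kinase, which starts contraction by phosphorylating the regulatory light chain. Its values were 9.14, 8.72 and 8.99 in Rac1-/- glands, against 8.32, 8.78 and 7.27 in WT glands. Nas484 was the lowest by about 1 unit, and Nas483 of the WT group lay above Nas497 of the Rac1-/- group. The log2 fold change was 0.83 (SE 0.52, 95% interval −0.35 to 2.01, adjusted p = 0.946), and it was −0.13 with a common median. The other 2 Mylk probe sets gave 0.08 (SE 0.43) and −0.07 (SE 0.50), both with overlap.

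Calponin and transgelin, encoded by Cnn1 and Tagln, bind actin filaments and mark differentiated smooth muscle and myoepithelial cells. Cnn1 read 7.81, 6.85 and 5.597 in Rac1-/- glands, against 7.15, 7.31 and 7.15 in WT glands. The Rac1-/- glands held both the highest and the lowest value while the WT glands were close together, and the log2 fold change was −0.45 (SE 0.60, 95% interval −1.82 to 0.92, adjusted p = 0.96). Without Nas518 it was 0.13. Tagln read 9.23, 9.29 and 7.84 in Rac1-/- glands, against 8.50, 7.85 and 8.72 in WT glands. Nas518 was again the lowest, next to Nas483, and the log2 fold change was 0.43 (SE 0.55, 95% interval −0.83 to 1.68, adjusted p = 0.958), turning to −0.46 with a common median. Over the 5 contractile proteins the median log2 fold change was 0.43, with 4 above 0 and 1 below, but it was −0.46, with 1 above 0 and 4 below, with a common median and 0.01 without normalization.

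Other genes of the contractile apparatus were read from a list of 20, all measured. The log2 fold change was above 0 for 13 and below 0 for 7, with a median of 0.22, and 0 passed the adjusted threshold. The median turned to −0.46 with a common median and was 0.01 without normalization. At an unadjusted p of 0.05, 1 of the 20 was higher and 0 were lower, where 2.23% and 1.82% of all genes were. The higher gene was Cald1, encoding caldesmon, which restrains actomyosin in smooth muscle. Cald1 read 8.61, 9.85 and 8.50 in Rac1-/- glands against 6.998, 6.98 and 8.07 in WT glands. The groups were separated, with a log2 fold change of 1.64 (SE 0.56, unadjusted p of 0.0179, adjusted p = 0.946). Itga7, a laminin-binding integrin subunit of muscle, gave 1.30 (SE 0.64, adjusted p = 0.946) with overlap.

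The upstream sequence of Acta2 is shown because it was the gene of the set whose groups were separated, with those of Mylk and Cnn1, which gave a positive and a negative difference, beside it. Promoters came from RefSeq (GRCm38.p6), where 6 of the 10 genes were matched, and each stretch below reads 5′ to 3′ on the strand of its gene and ends at the base before the annotated start, in lower case with CArG boxes in capitals.
Acta2 (chr19:34255374-34255497, minus strand): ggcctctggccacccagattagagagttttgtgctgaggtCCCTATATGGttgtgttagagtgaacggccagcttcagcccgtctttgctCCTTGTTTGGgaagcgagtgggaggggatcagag
Mylk (chr16:34784850-34784949, plus strand): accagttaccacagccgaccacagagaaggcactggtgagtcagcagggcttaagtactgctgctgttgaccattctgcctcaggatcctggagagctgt
Cnn1 (chr9:22099153-22099252, plus strand): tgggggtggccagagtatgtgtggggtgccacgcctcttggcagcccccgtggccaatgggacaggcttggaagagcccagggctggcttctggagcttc

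The CArG box was searched for on both strands in the 250 bases before each start, as CC, a core of 6 bases and GG, first with a core of A and T alone and then with up to 1 G or C in the core. The strict form stood in 482 of 32851 promoters, or 1.47%, and in 0 of the 6 matched members. The form with up to 1 G or C stood in 8.59% of promoters and in 1 of the 6 members, Acta2, which held 2 boxes with first bases 84 and 34 before the start, where 0.67% of promoters held 2 or more. No box was found in the windows of Mylk, Cnn1, Krt5, Krt14 or Oxtr. Of the 21 promoters of the other contractile list, 4 held the strict form, in Myl9, Myl6, Cnn2 and Vcl. These matches describe letters in a window of 1 annotated start per entry and were not tested for binding.

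The factors that act at such boxes, serum response factor, the myocardin family and their partners, were 10 genes, all measured. The log2 fold change was above 0 for 3 and below 0 for 7, with a median of −0.36. Srf itself averaged 6.04 ± 0.66 in Rac1-/- glands and 5.99 ± 0.69 in WT glands (SD, n = 3 each), a log2 fold change of 0.05 (SE 0.56). Mrtfb, a cofactor of Srf that responds to the actin pool, read 7.33, 6.01 and 6.84 in Rac1-/- glands against 7.88, 8.47 and 7.44 in WT glands. Its groups were separated, Rac1-/- below, with a log2 fold change of −1.21 (SE 0.53, unadjusted p of 0.0491, adjusted p = 0.946). As deposited the Mrtfb groups overlapped narrowly, with Nas496 of the Rac1-/- group at 163 and Nas484 of the WT group at 162. Elk1, a partner of Srf that competes with the myocardin family, was also separated downward, by −1.21 (SE 0.72, adjusted p = 0.946), and most of that came from Nas496 at 3.24, as the other 2 Rac1-/- glands read 5.59 and 5.97 and the highest WT gland 6.34. Its deposited intensities overlapped.

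The 3 basal keratins gave different patterns. Krt5 and Krt14 pair to form the keratin filaments of basal epithelial cells. Krt14 read 8.74, 7.08 and 7.34 in Rac1-/- glands, against 7.21, 7.12 and 5.08 in WT glands. Nas496 was highest, Nas484 lowest by about 2 units, and the 4 mice between them were close together, so the groups overlapped. The means were 7.72 ± 0.89 in Rac1-/- glands and 6.47 ± 1.201 in WT glands (SD, n = 3 each), with a log2 fold change of 1.25 (SE 0.72, 95% interval −0.39 to 2.90, unadjusted p of 0.118, adjusted p = 0.946). It was 0.57 without Nas484.

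A further Krt14 probe set was dim, with a mean at the 37.9th percentile of all probe sets. It read 6.35, 5.61 and 5.94 in Rac1-/- glands against 5.28, 5.48 and 4.46 in WT glands. Its deposited intensities were 76.3, 73.4 and 70.6 in Rac1-/- glands and 19.0, 29.0 and 30.8 in WT glands. This one was separated under quantile normalization, a common median and no normalization alike, and differed by 0.90 on the log2 scale (SE 0.50, adjusted p = 0.949). The remaining one read 7.46, 5.23 and 7.32 in Rac1-/- glands against 6.12, 6.07 and 5.34 in WT glands, where Nas497 was the lowest of all, with a log2 fold change of 0.83 (SE 0.68). All 3 Krt14 probe sets thus lay above 0, and they did so under the 3 scalings and with any 1 mouse left out. The brightest, ending in _x_at, is of a class whose probes may bind related transcripts, and type I keratins are close in sequence.

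**Figure D2:**
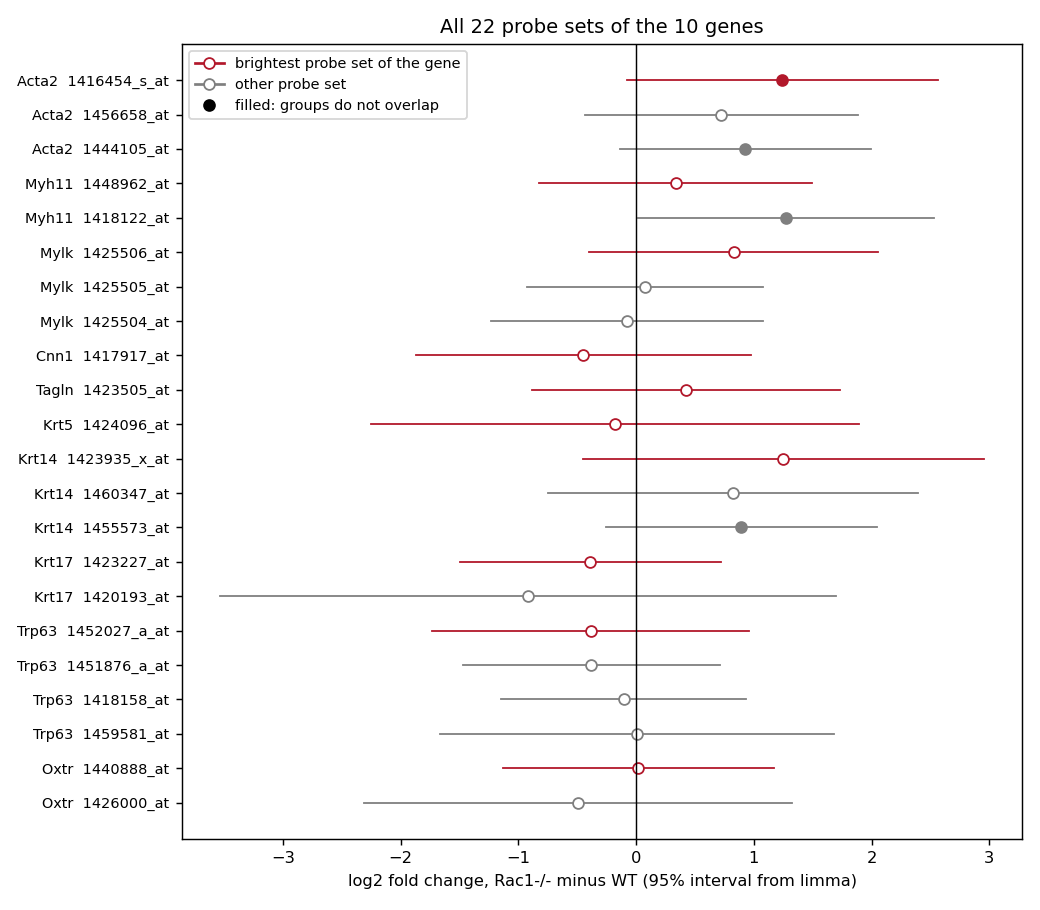
Log2 fold change (Rac1-/- minus WT) of the 22 probe sets of the 10 genes with 95% intervals from the limma fit over all probe sets, where red marks the brightest probe set of a gene and filled points mark groups that did not overlap. Of the 22, 13 lie above 0 and 9 below, the 4 filled points belong to Acta2 (2 probe sets), Myh11 and Krt14, and only the dim Myh11 interval clears 0.

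Across quantile normalization, a common median and no normalization, 7 of the 22 probe sets stayed above 0, 5 stayed below and 10 changed sign. The 7 were the 3 of Acta2, the 3 of Krt14 and the dim one of Myh11. Over all probe sets the median log2 fold change was −0.01, −0.10 and 0.37 under these scalings in the same order. A sign can therefore hold or turn with the shift of the whole array. The share of all probe sets that kept their sign was not counted.

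Krt5 read 7.42, 8.68 and 5.22 in Rac1-/- glands, against 6.64, 6.95 and 8.26 in WT glands. The Rac1-/- glands alone spanned 3.46 units, from Nas518 to Nas497, and the log2 fold change was −0.18 (SE 0.87, 95% interval −2.18 to 1.82, adjusted p = 0.992). It was 0.79 without Nas518 and −1.04 without Nas497. Krt5 and Krt14 had the largest mean absolute difference of all pairs in the set, at 1.53 between their values over the 6 mice, centred on each gene's mean. This measure is not scaled for the range of a gene, and Krt5 and Krt14 had the widest ranges, 3.46 and 3.66. Krt17, a keratin of basal and stressed epithelia, read 5.02, 5.03 and 5.58 in Rac1-/- glands, against 5.25, 6.13 and 5.42 in WT glands. The groups overlapped and differed by −0.39 on the log2 scale (SE 0.46, 95% interval −1.45 to 0.67, adjusted p = 0.953), and a very dim second probe set gave −0.92 (SE 1.13).

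Trp63 encodes p63. It read 6.38, 6.78 and 6.94 in Rac1-/- glands, against 6.53, 6.54 and 8.19 in WT glands. Nas484 stood more than 1 unit above the other 5 mice, and the log2 fold change was −0.38 (SE 0.57, 95% interval −1.68 to 0.91, adjusted p = 0.963) with all mice and 0.18 without Nas484. The other 3 Trp63 probe sets gave −0.38, −0.10 and 0.01, with overlap in each. From a list of 16 genes known as p63 targets in basal epithelia, 15 were measured, 6 above 0 and 9 below, with a median of −0.24 that turned to 0.08 without Nas497. At an unadjusted p of 0.05, 1 was lower, where 1.82% of all genes were. It was Gata3, which in the mammary gland is better known as a luminal transcription factor. Gata3 had a log2 fold change of −1.09 (SE 0.47, unadjusted p of 0.0469, adjusted p = 0.946) with the groups separated. Cdkn1a, encoding the cell cycle inhibitor p21, gave 1.02 (SE 0.55, adjusted p = 0.946) and was separated upward after quantile normalization, but overlapped as deposited.

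The oxytocin receptor, read from its brightest probe set, had close group means, and the sign of its difference turned with a common median, to −0.37. Oxtr read 7.16, 6.36 and 6.95 in Rac1-/- glands, against 7.03, 7.16 and 6.22 in WT glands. Each genotype held 2 glands near 7 and 1 lower gland, and the means of 6.82 ± 0.42 in Rac1-/- glands and 6.80 ± 0.51 in WT glands (SD, n = 3 each) gave a log2 fold change of 0.02 (SE 0.48, 95% interval −1.08 to 1.12, adjusted p = 0.998). The second probe set read 6.62, 4.92 and 6.44 in Rac1-/- glands against 5.22, 6.32 and 7.91 in WT glands, again with overlap, and a log2 fold change of −0.49 (SE 0.79).

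Downstream of the receptor, 17 of the 20 listed genes of oxytocin signaling and myosin phosphorylation were measured. The log2 fold change was above 0 for 7 and below 0 for 10, with a median of −0.22 that turned to 0.12 without Nas484. At an unadjusted p of 0.05, 0 were higher and 2 were lower, where 2.23% and 1.82% of all genes were. The lower genes were Orai1, the plasma membrane channel that refills calcium stores, and Itpr2, a receptor that releases stored calcium. Orai1 read 7.59, 6.84 and 6.75 in Rac1-/- glands against 8.30, 8.80 and 8.22 in WT glands, and was separated by −1.38 (SE 0.46, unadjusted p of 0.0163, adjusted p = 0.946). Itpr2 read 6.83, 7.12 and 7.46 in Rac1-/- glands against 8.45, 8.07 and 7.97 in WT glands, separated by −1.03 (SE 0.44, unadjusted p of 0.044, adjusted p = 0.946). Neither gene is restricted to myoepithelial cells.

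Other genes of the basal mammary epithelium were a list of 30, of which 29 were measured. They divided evenly, with 15 above 0 and 14 below and a median of 0.03. At an unadjusted p of 0.05, 1 was higher and 1 lower, where 2.23% and 1.82% of all genes were. Id4, a repressor found in basal mammary cells, read 6.38, 6.60 and 7.17 in Rac1-/- glands against 5.37, 5.88 and 5.59 in WT glands, separated by 1.11 (SE 0.45, unadjusted p of 0.0374, adjusted p = 0.946). Snai2, which encodes the basal regulator Slug, gave −1.51 (SE 0.66, unadjusted p of 0.0492, adjusted p = 0.946) with overlap.

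Markers of the other cell types in the gland were read in the same arrays, in part because vessel smooth muscle shares the contractile genes. The 12 pericyte and vascular smooth muscle markers had a median log2 fold change of −0.25, with 4 above 0 and 8 below. The median turned to 0.18 without Nas484 and to 0.21 without normalization. Their summed quantile-normalized intensity was 1091 to 1204 in Rac1-/- glands and 968 to 1639 in WT glands. The 5 contractile members summed to 2486 to 3955 in Rac1-/- glands and 1623 to 2142 in WT glands after quantile normalization, without overlap. Summed as deposited, they overlapped, at 4657, 1501 and 2037 in Rac1-/- glands and 2074, 2700 and 1812 in WT glands. After quantile normalization, the 3 basal keratins summed to 248 to 633 in Rac1-/- glands and 286 to 384 in WT glands. The 14 skeletal muscle markers had a median of −0.23. On the same scale they summed to 1164 to 3980 in Rac1-/- glands and 1225 to 3503 in WT glands. Nas496 was the highest of the 6 mice, as it was for Acta2. As deposited, Nas478 of the WT group was the highest for this sum, at 4286 against 4275 in Nas496. The 12 skin keratinocyte markers, which bear on the keratins, had a median of 0.37, with 8 above 0. At an unadjusted p of 0.05, 3 of them were higher, where 2.23% of all genes were. After quantile normalization the skin markers summed to 839 to 1688 in Rac1-/- glands and 684 to 1504 in WT glands. The smallest unadjusted p values in these lists belonged to Cspg4 at 0.86 and Abcc9 at −0.87 for pericytes and to Actn3 at 0.68 and Atp2a1 at −0.83 for skeletal muscle. For skin they belonged to Lce1a1 at 2.11 and Dsg1a at 1.37, both dim. The part of skeletal muscle or skin in the values of Acta2 and Krt14 was not tested.

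The remaining lists placed the myoepithelial genes against the rest of the gland. Secretory luminal markers had a median of −1.49, with 10 of 10 below 0. At an unadjusted p of 0.05, 6 of them were lower, where 1.82% of all genes were. The 15 general luminal markers had a median of 0.03, with Cldn4 at 1.54 (SE 0.48) and Elf5 at −1.45 (SE 0.47). Macrophage markers had a median of 0.65 with 9 of 11 above 0, fibroblast markers 0.08, adipocyte markers 0.06 and endothelial markers −0.02. With a common median, every list had a median below 0 except the skin markers. By the smallest unadjusted p, the leading secretory markers were Glycam1 at −3.62 and Wap at −2.77, the leading macrophage markers Lyz2 at 0.82 and Cx3cr1 at 0.80, and the leading fibroblast markers Mfap5 at 0.82 and Fbln1 at 0.73. The leading adipocyte markers were Pparg at −0.81 and Retn at 0.66, and the leading endothelial markers Eng at 1.08 and Tie1 at −0.59. None of the genes in these lists passed the adjusted threshold, and the same holds for every other gene on the array.

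**Figure D3:**
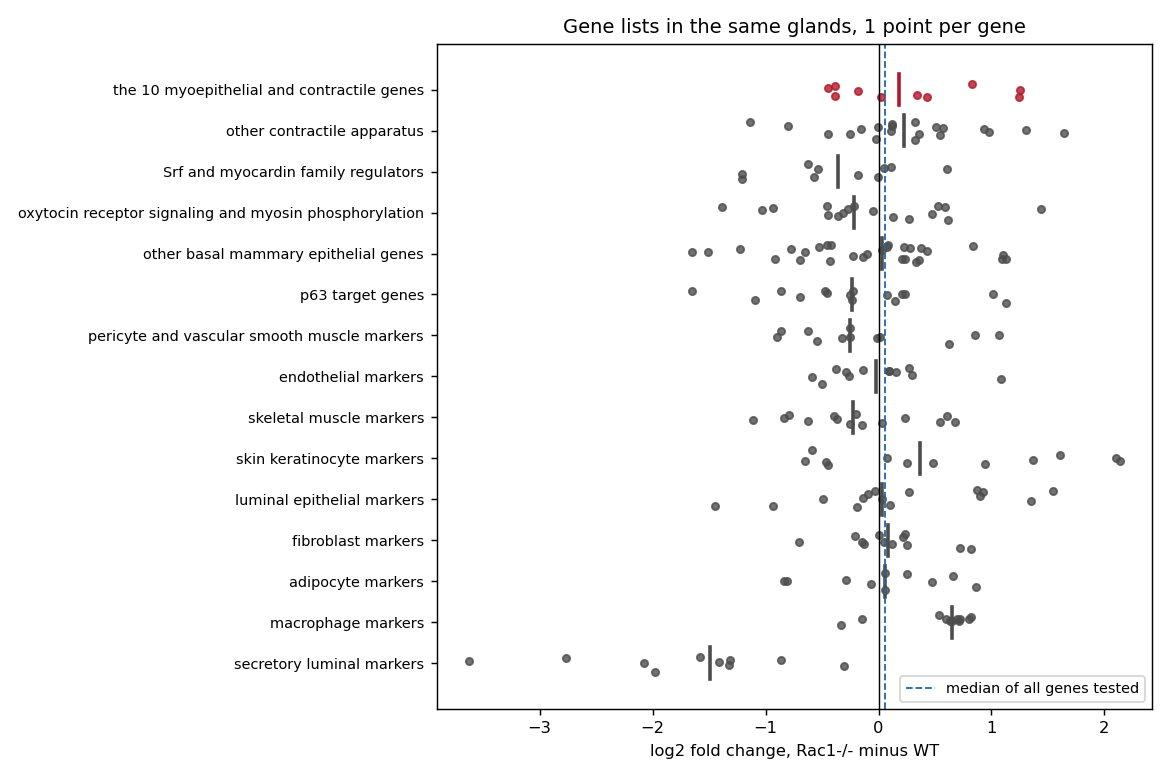
Log2 fold change (Rac1-/- minus WT) of each measured gene of the lists, with 1 point per gene, a short vertical bar at the median of each list and a dashed line at 0.06, the median of all genes tested. The 10 myoepithelial and contractile genes spread on both sides of 0 from −0.45 to 1.25, and the secretory luminal markers are the list lying wholly below 0.

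Each member was also expressed relative to 1 luminal gene, the keratin Krt18, on the same array. Krt18 was 1 of the 15 general luminal markers, whose log2 fold changes ran from −1.45 to 1.54, and no other luminal reference was used. The scale relative to Krt18, chosen after the data were seen, was taken from the deposited intensities. A factor common to all values of an array cancels on it, but differences in spread between arrays do not. After quantile normalization Krt18 itself read 10.72, 10.91 and 10.86 in Rac1-/- glands against 10.29, 9.84 and 9.67 in WT glands. It was separated by 0.90 (SE 0.43, adjusted p = 0.946 by limma). As deposited, the form used for this scale, Krt18 read 2064, 925 and 1278 in Rac1-/- glands. The deposited WT values were 1755, 1195 and 700, so the groups overlapped for Krt18. Relative to it, 3 members were above 0 and 7 below, with a median difference of −0.19, where 54.7% of all other genes were above 0 and their median was 0.11. Krt14 minus Krt18 was −2.15, −2.72 and −3.02 in Rac1-/- glands against −3.51, −3.11 and −4.01 in WT glands, and it was the only member that separated, by 0.91 (two-sided exact permutation p = 0.1, the smallest this design allows, and 1 after Benjamini-Hochberg adjustment over 10). Of the other genes, 0.473% were separated upward on this scale and 6.35% downward. Acta2 overlapped on this scale, with a difference of 0.46 (exact permutation p = 0.5, adjusted 1).

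**Figure D4:**
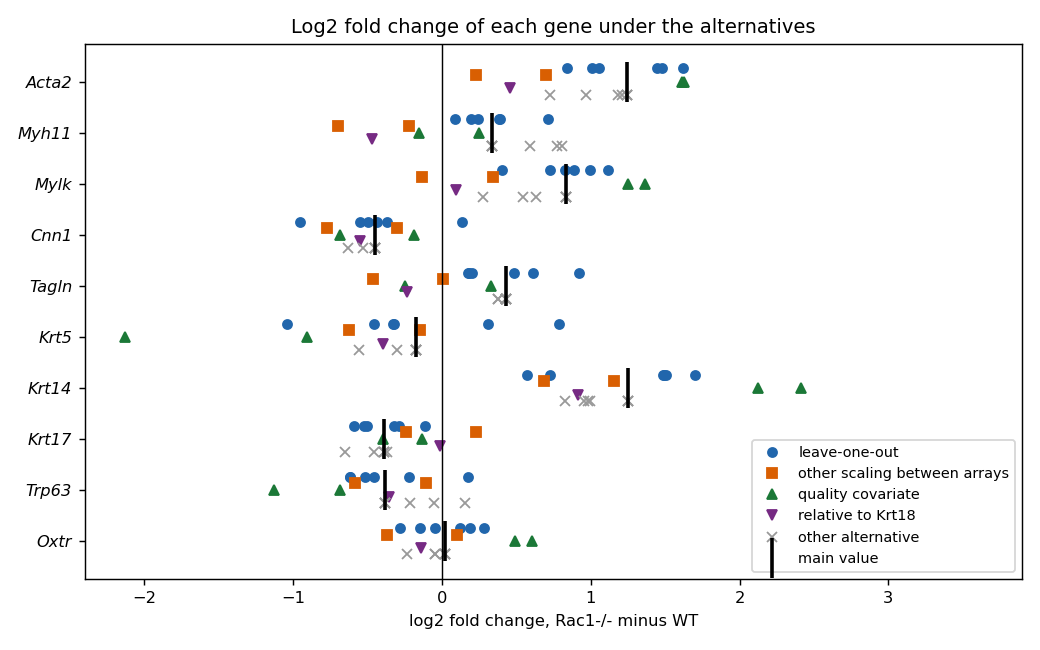
Log2 fold change (Rac1-/- minus WT) of each of the 10 genes as reported (black bar) and under each alternative, with leave-one-out, other scaling, quality covariates and the Krt18-relative scale marked by shape and colour. Acta2 and Krt14 stay above 0 in every alternative shown, over 0.23 to 1.63 for Acta2 and 0.57 to 2.41 for Krt14, and the other 8 genes have points on both sides of 0. Some alternatives, among them the variance trend and the higher floor, leave the log2 fold change of Acta2 and Krt14 unchanged. The actin 3′ minus 5′ signal, used as a covariate, did not overlap between the genotypes.

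The 10 genes did not share 1 profile across the 6 mice. Nas496 held the highest value for 5 genes, Acta2, Mylk, Cnn1, Krt14 and Oxtr, and Nas484 the lowest for 4 of those 5, Cnn1 being the exception. Nas518 held the lowest value for Cnn1, Tagln and Krt5, and Nas484 the highest for Myh11 and Trp63. By mean absolute difference Acta2 and Mylk were the closest pair at 0.35, followed by Myh11 and Trp63 at 0.36 and by Krt17 and Oxtr at 0.37. The measure is not scaled, so genes of small range come out close. Krt17 and Oxtr spanned only 1.11 and 0.94, and Nas496 was lowest for Krt17 but highest for Oxtr. These distances describe profiles over 6 arrays that differ in interquartile range and in the actin 3′ minus 5′ signal. Whether they reflect the control of the genes was not tested.

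By the same measure, among the 9096 genes above the median level, the genes closest to Acta2 were Epb41l4a at 0.22, Ccn1 at 0.23, Emilin2 at 0.25, Krt7 at 0.27 and Clic4 at 0.28. The closest to Krt14 were Dexi at 0.21, Aif1 at 0.23, Ran at 0.31, H2-Aa at 0.33 and Ctss at 0.34. No other member was among either 5. Aif1, H2-Aa and Ctss are expressed in macrophages and antigen-presenting cells. All 5 of the Krt14 neighbours were, like Krt14, highest in Nas496 and lowest in Nas484. Because they were picked for closeness to Krt14, these shared extremes follow from the choice.

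**Figure D5:**
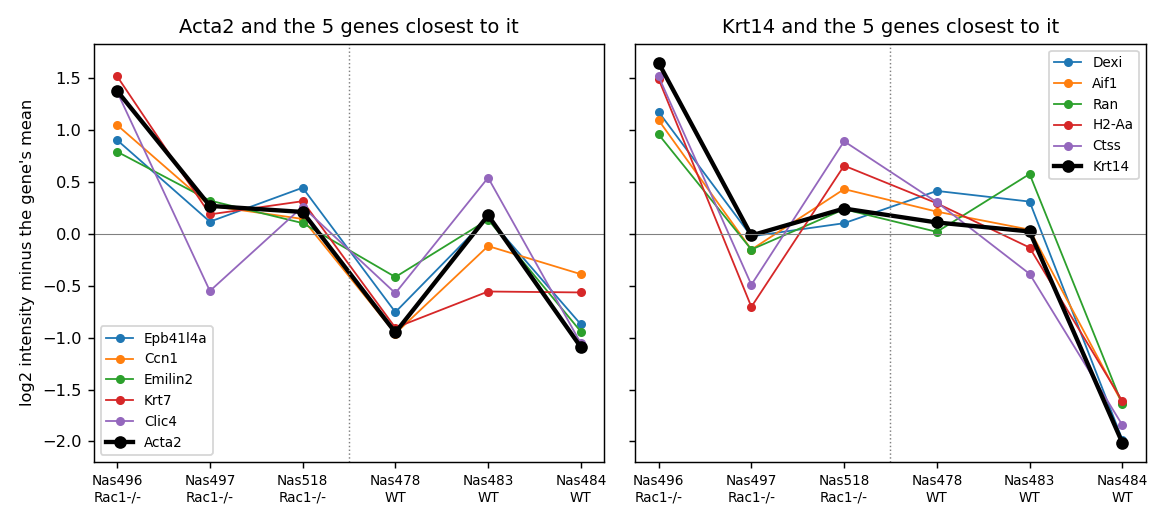
Log2 intensity minus the mean of the gene over the 6 mice, for Acta2 and for Krt14 (black) with the 5 genes closest to each, Rac1-/- mice left of WT mice, the lines joining the points of a gene and giving no order to the mice. The Acta2 group is highest in Nas496 and the Krt14 group lowest in Nas484, where Krt14 read 5.08.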

How the data were processed

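Total RNA from snap-frozen glands was amplified with the Sensation kit and hybridised to Affymetrix mouse expression arrays. The deposited values are summarised intensities per probe set on a linear scale, which the authors had scaled so that each array had a trimmed mean of 100 (2% trimmed at each end). For the summary method and the test used, nothing is given in the sources used here. The values were quantile-normalized between arrays, those then below 1 were set to 1, and log2 was taken. Of 45101 probe sets, 34958 named 1 gene, 932 several and 9211 none in the annotation given. The brightest probe set stood for each gene. Rac1-/- minus WT was fitted over 18194 genes, and separately over all probe sets, with limma 3.58.1 in R 4.3.3 (lmFit and eBayes, two-sided, Benjamini-Hochberg, threshold 0.05), after the same steps were tested on simulated data. Precision is limited by the 6 arrays, of which none was identical to another. The members, lists and tests were chosen with earlier results of these data known. Named genes were the 10 members, the 2 with the smallest p of each other list, and the 5 closest in profile to Acta2 and to Krt14. Chosen outside this rule, after values were seen, were Acta1, Actg2, Srf and Krt18, and Myl9, Myl6, Cnn2 and Vcl for their promoters. Of 212 listed genes, 204 were matched. Alternatives changed the scaling, the floor, the probe set rule, the mice and quality covariates.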

Additional observations from a re-analysis of the deposited data

How the results depend on the processing

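Nothing passed the adjusted threshold in any of 18 alternatives, and over the 17 fitted by gene the genes at an unadjusted p of 0.05 ran from 157 to 1166 higher and from 178 to 677 lower. The share of those genes that were higher was 55% as reported, 42.2% with a common median, 78.5% without normalization, 75.6% without Nas484 and 33.5% without Nas497. The median of all genes was 0.06 as reported, −0.12 with a common median and 0.35 without normalization. The median of the 10 members was −0.42 with a common median and 0.03 to 0.52 with 1 mouse left out. With a common median Myh11 was −0.70, Mylk −0.13, Tagln −0.46 and Oxtr −0.37. Without normalization Myh11 was −0.22 and Krt17 0.23. With the interquartile range as covariate Myh11 was −0.15, and with the actin 3′ minus 5′ signal Tagln was −0.25. Oxtr was −0.23 as the mean of its probe sets, −0.046 with array weights and −0.047 without Nas484 and Nas497, where Trp63 was 0.16. Relative to Krt18, chosen after seeing the data, Myh11 was −0.47, Tagln −0.23 and Oxtr −0.14. Leaving out 1 mouse gave −0.95 to 0.13 for Cnn1, −1.04 to 0.79 for Krt5, −0.62 to 0.18 for Trp63 and −0.28 to 0.28 for Oxtr, against 0.84 to 1.62 for Acta2 and 0.57 to 1.70 for Krt14. The cause of these turns was not tested. No paired analysis was possible because the labels number each mouse individually and share no number or litter between genotypes.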

Other observations

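A probe set annotated to both Krt17 and Krt14 belonged to no single gene and entered no gene value. It was dim, with log2 intensities of 1.56, 1.87 and 3.85 in Rac1-/- glands against 5.38, 3.82 and 2.09 in WT glands, and a difference of −1.34 (SE 0.94, adjusted p = 0.949 by limma over all probe sets) with overlap, opposite in sign to the 3 probe sets of Krt14 alone. Another, very dim Rac1 probe set had a value at the floor in 1 of the Rac1-/- glands and was not used to check the genotype.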
